A study of Homo sapiens with 6 samples.

Results

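The miR-15/16 family of microRNAs (miRNAs) was followed through knockdown of the tRNA pseudouridine synthase TruB1 in HEK-293FT, a line derived from human embryonic kidney and transformed with SV40 large T antigen. The members were taken by assay name, hsa-miR-15a, hsa-miR-15b, hsa-miR-16, hsa-miR-195, hsa-miR-424 and hsa-miR-503, which are 6 of the 377 human miRNA assays on the card. Each of the 6 had a determined value in every sample. The control group comprised 3 HEK-293FT samples whose treatment the labels name only as control, and the knockdown group comprised 3 samples of the same line transfected with siRNA against TruB1. The titles carry a series number from 1 to 3 in each group. What that number stands for, and whether the samples came from separate cultures, is not stated, so p-values measure only the spread between these samples, which may be technical. The knockdown level of TruB1 in each sample was not analysed here.

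A miRNA is a short RNA that guides an Argonaute protein to messenger RNAs, mainly through base pairing of its seed, bases 2 to 8 from the 5′ end. The miR-15/16 family is known as a brake on the cell cycle, because its targets include G1 cyclins, cyclin-dependent kinases and the survival factor BCL2, and loss of the miR-15a/16-1 locus is a known lesion of chronic lymphocytic leukaemia. The question behind the knockdown, as far as the study is known, is whether the enzyme takes part in miRNA maturation, that of let-7 above all. Target messenger RNAs and cell cycle phase were not analysed here, so the name describes what the family is known for and not a readout of these cells.

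The mature sequences below are the assay targets given in the deposited table, shown because the seed decides who belongs to the family and because the remaining bases are what an assay must tell apart. Capitals mark the seed.
miR-15a: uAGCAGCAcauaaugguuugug
miR-15b: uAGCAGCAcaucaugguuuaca
miR-16: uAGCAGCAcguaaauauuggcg
miR-195: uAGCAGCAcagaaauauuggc
miR-424: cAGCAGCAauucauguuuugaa
miR-503: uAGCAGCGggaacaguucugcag
miR-103: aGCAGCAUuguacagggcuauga
miR-107: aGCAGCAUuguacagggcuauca

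The first 5 share the seed AGCAGCA, and no other assay of the card had it. The seed of miR-503 differs from that of miR-15a by A8G, counted from the 5′ end of the miRNA, and its first 6 bases are those of the other members. In miR-103 and miR-107, relatives outside the family, AGCAGCA lies at bases 1 to 7, so the seed is displaced by 1 base. Compared base by base from the 5′ end, miR-15b differs from miR-15a by A12C, G20A, U21C and G22A. Over the 21 bases they share, miR-195 differs from miR-16 only by G10A and U11G, and it is 1 base shorter. Whether an assay also picks up its near relative was not tested. The relatives miR-497 and miR-646 and the members' passenger strands were not found on the card under the names searched, so they were not analysed here.

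By RefSeq on GRCh38.p14, the 6 members come from 7 hairpins, since mature miR-16 is encoded at 2 loci. MIR15A (chr13:50049119-50049201, minus strand) and MIR16-1 (chr13:50048973-50049061, minus strand) lie 57 bases apart within the span of the noncoding gene DLEU2. MIR15B (chr3:160404588-160404685, plus strand) and MIR16-2 (chr3:160404745-160404825, plus strand) lie 59 bases apart within the span of SMC4, which encodes a condensin subunit. MIR195 (chr17:7017615-7017701, minus strand) lies within the span of MIR497HG. MIR424 (chrX:134546614-134546711, minus strand) and MIR503 (chrX:134546328-134546398, minus strand) are separated by 215 bases. No gene under another name was found to span either. Genes whose symbol begins with that of the hairpin, such as MIR503HG for MIR503, were left out of that search. The target of the miR-16 assay is thus the product of both loci, while the target of each of the other 5 assays is listed at a single locus.

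TruB1 is known to modify a uridine in the T arm of transfer RNAs, in the sequence GUUCNANNC. These letters were searched in the 7 hairpins after the hairpin sequences had been seen. They occur in 2 of the 7, against 22 of 1519 RefSeq hairpins (1.45%), and in 0 of the 7 on the other strand (16 of 1519). The 2 hairpins are shown because they carry the motif, in capitals.
MIR16-2: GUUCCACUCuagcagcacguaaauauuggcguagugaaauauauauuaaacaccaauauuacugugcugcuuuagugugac
MIR424: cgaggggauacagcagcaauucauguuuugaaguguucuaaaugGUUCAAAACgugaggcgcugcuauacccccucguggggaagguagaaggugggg

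In MIR16-2 the match covers bases 1 to 9 of the hairpin, next to the start of the mature arm. In MIR424 it covers bases 45 to 53 of 98. A match of letters is a description of the sequence, and modification of these hairpins was not measured here.

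Expression was read as threshold cycle (Ct), the PCR cycle in which the fluorescence of a well passes its threshold. Template doubles with each fully efficient cycle, so a Ct earlier by 1 stands for 2-fold more. Each miRNA had 1 well per sample. Between 188 and 226 miRNA assays had a Ct under 35 in a sample. The reference U6, a small nuclear RNA, averaged from 12.2 to 15.4 cycles over 2 to 4 determined wells. Control sample 3 stood at the early end with 2 wells, and the 4 wells of control sample 1 spanned 2.77 cycles. The mean Ct of the 157 miRNA assays under 35 in all samples was 25.9 to 26.6 in control and 26.2, 27.7 and 27.6 in knockdown, series 1 to 3. Raw Ct values of the members carry this later detection on the knockdown cards. All 5 miRNAs listed as abundant in this line (miR-10a, miR-10b, miR-17, miR-20a, miR-92a) were under Ct 35 in all 6 samples, between 16.2 and 28.0. Of 9 listed markers of blood, muscle, liver and neurons, 7 were found on the card by name, and miR-206 and miR-124 were not. An assay named miR-124a was on the card and under 35 in at least 3 samples, but it was not read as a marker. The neuronal miR-9 (23.2 to 25.9) and the muscle miRNA miR-133a (27.9 to 31.7) were under 35 in all 6 samples. The blood miRNAs miR-142-3p (31.0 to 32.8) and miR-223 (29.5 to 36.2) were under 35 in 5 samples each, and the muscle miRNA miR-1 (30.4 to 32.1) in 3. The red cell miRNA miR-451 had 1 determined well, at 35.9, and the liver miRNA miR-122 had none.

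The family spanned a wide range of abundance in these cells, with miR-16 far ahead of the other members. The order miR-16, miR-15b, miR-195, miR-15a, miR-503, miR-424 held in 6 of 6 samples. Mean Ct over the 6 samples was 20.1 ± 1.13 for miR-16, 24.1 ± 0.808 for miR-15b, 25.5 ± 0.960 for miR-195, 27.5 ± 1.30 for miR-15a, 28.7 ± 0.710 for miR-503 and 29.5 ± 1.66 for miR-424 (SD, n = 6). From first to last this is 9.46 cycles, or 702-fold if all assays amplify alike, which was not tested. Among the 377 assays miR-16 ranked between 5 and 8 by earliest Ct in every sample, and miR-15b between 29 and 46. Members from the X-chromosome locus ranked later, miR-503 between 102 and 115 and miR-424 between 116 and 169.

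Not every step in that order was larger than its spread. On the same card miR-15b followed miR-16 by 4.06 ± 1.04 cycles, miR-195 followed miR-15b by 1.34 ± 0.453 and miR-15a followed miR-195 by 2.08 ± 0.662 (SD, n = 6). The step from miR-15a to miR-503 was 1.12 ± 0.799 cycles and ranged from 0.243 to 2.40. The last step, from miR-503 to miR-424, was 0.861 ± 1.15, smaller than its SD, although miR-424 was the later of the 2 in 6 of 6 samples. Knockdown sample 3 set most of that spread, with a gap of 3.14 cycles against 0.041 to 0.722 in the other 5.

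**Figure D1:**
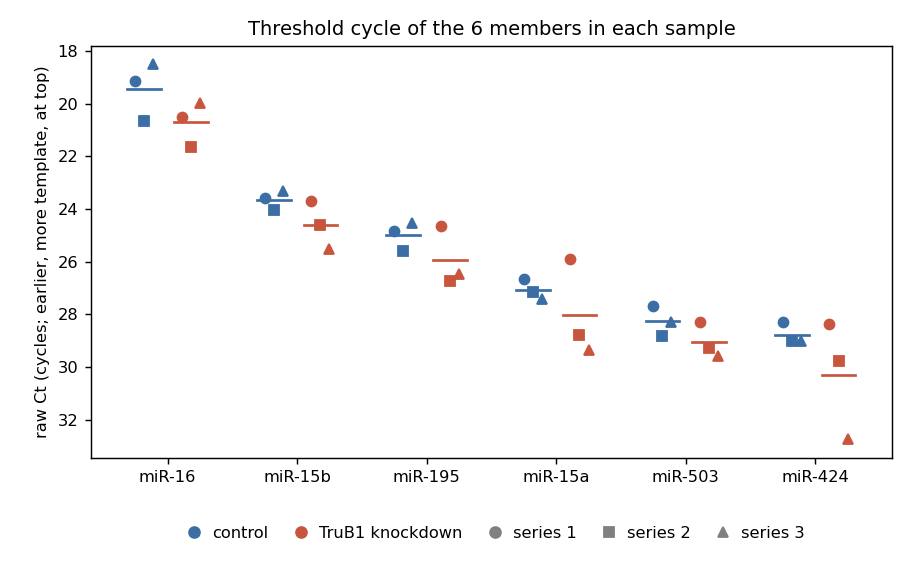
Raw Ct in cycles for each member in each sample, on an axis with early cycles (more template) at the top. Points are samples, colour is the group, shape is the series number and lines are group means. miR-16 is earliest and miR-424 latest in all 6 samples, and the single point at 32.7 is miR-424 in knockdown sample 3.

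The pair from chromosome 13 and the pair from chromosome 3 were measured as follows. The miR-16 assay gave Ct values of 19.1, 20.7 and 18.5 in the controls of series 1 to 3 and 20.5, 21.6 and 20.0 in the matching knockdown samples. Relative to U6 its log2 ratio was -4.40, -6.68 and -6.36 in control and -5.62, -6.20 and -6.71 in knockdown. Control sample 1 was the highest of all, and the groups overlapped.

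For miR-15a, which is processed from the same transcript as MIR16-1, the log2 ratio to U6 was -11.93, -13.17 and -15.24 in control samples 1 to 3 and -11.03, -13.34 and -16.09 in knockdown samples 1 to 3. Its counterpart miR-15b, the neighbour of MIR16-2, stood at -8.86, -10.05 and -11.18 in control and at -8.83, -9.15 and -12.27 in knockdown. In both groups the ratios of these members to U6 were highest in series 1 and lowest in series 3, and the knockdown values reached beyond the control values at both ends. Relative to the mean of the commonly detected assays, miR-15b in control was instead highest in series 3 (2.27, 2.57 and 2.61). On that scale miR-15a in control was again lowest in series 3 (-0.80, -0.55 and -1.46). In knockdown, miR-15b on that scale was highest in series 2 and lowest in series 3 (2.48, 3.10 and 2.11). There miR-15a again fell from series 1 to series 3 (0.28, -1.09 and -1.72). The spread between series was larger than the difference between groups.

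miR-195, whose mature sequence is close to that of miR-16, had a log2 ratio to U6 of -10.09, -11.60 and -12.39 in control samples 1 to 3. In knockdown it was -9.75, -11.29 and -13.23. Here too both groups ran from series 1 at the top to series 3 at the bottom and overlapped. That run changed with the scale. Relative to the mean of the commonly detected assays miR-195 in control was highest in series 3, at 1.04, 1.01 and 1.39. In knockdown it was again highest in series 1 but lowest in series 2, at 1.55, 0.97 and 1.15.

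Of the X-chromosome pair, miR-503 stood at -12.93, -14.86 and -16.15 in control samples 1 to 3 and at -13.43, -13.84 and -16.34 in knockdown. miR-424 stood at -13.55, -15.02 and -16.87 in control and at -13.47, -14.32 and -19.48 in knockdown. Its value in knockdown sample 3 was the lowest of any member in any sample, while the other 2 knockdown values were among its 3 highest.

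Knockdown was compared with control over all 195 assays detected well enough to test, with limma on log2 ratios to U6. None of the 6 members passed an adjusted p of 0.05, and none had an unadjusted p under 0.05. Over all tested assays 0 (0%) passed at the adjusted threshold and 0 (0%) at the unadjusted one. The log2 change was -0.36 for miR-16 (fold 0.779), -0.04 for miR-15a (fold 0.973), -0.05 for miR-15b (fold 0.963), -0.06 for miR-195 (fold 0.959), -0.61 for miR-424 (fold 0.655) and 0.11 for miR-503 (fold 1.08). The standard errors lay between 1.46 and 1.49, and every member's adjusted p was 0.999. These errors leave wide 95% intervals, from -2.95 to 2.87 for miR-15a and from -3.54 to 2.32 for miR-424, so changes of several-fold either way were not distinguishable from none. In limma each error is drawn toward a value shared by all assays tested. The members' own log2 ratios to U6 had SDs over the 6 samples from 0.876 for miR-16 to 2.33 for miR-424.

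With a replicate block for the series number, which compares each knockdown sample with the control of its own number, the estimates were the same and the errors smaller. Again none of the 6 members had an unadjusted p under 0.05 (limma, lowest 0.395, for miR-424; adjusted p = 0.990 for each), where 10 of 189 assays (5.29%) did and 0 (0%) passed after adjustment. The 95% intervals were -1.502 to 0.782 for miR-16, -1.20 to 1.12 for miR-15a, -1.26 to 1.15 for miR-15b, -1.14 to 1.02 for miR-195, -2.20 to 0.98 for miR-424 and -1.01 to 1.24 for miR-503. A 2-fold decrease therefore lay within each member's interval, while a 2-fold increase lay outside it for miR-16 and miR-424.

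Of the 6 members, 5 had a lower mean in knockdown and 1 a higher one, with a median of -0.06, beside 116 of 195 assays lower (59.5%) and a median of -0.10 over all tested assays. That split depends on the scale. With the mean Ct of the 157 commonly detected assays as reference 2 members were lower and 4 higher (median 0.08), beside 46.2% of assays lower and a median of 0.04. On raw Ct all 6 were later in knockdown (median -0.96), beside 91.8% of assays and a median of -1.0. Leaving out knockdown sample 3 turned the U6-referenced split to 1 lower and 5 higher, and leaving out control sample 1 to 0 lower and 6 higher, beside 14.9% of assays lower in each of these fits. Without knockdown sample 1, knockdown sample 2 or control sample 3 all 6 were lower, beside 91.7%, 72.3% and 89.0% of assays. The members' median differed from that of all assays tested by at most 0.27 in each of these fits, the largest difference being that without knockdown sample 3.

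Within a series number no member kept its direction. The knockdown-to-control fold relative to U6 was 1.87, 0.884 and 0.555 in series 1, 2 and 3 for miR-15a, and 1.02, 1.86 and 0.470 for miR-15b. For miR-16 it was 0.431, 1.40 and 0.784, and for miR-195 it was 1.27, 1.24 and 0.559. It was 1.05, 1.62 and 0.164 for miR-424 and 0.708, 2.03 and 0.878 for miR-503. Lower in 3 of 3 series were 0 of 6 members, against 31 of 161 assays determined in all samples (19.3%), and higher in 3 of 3 were 0 of 6, against 7 of 161 (4.35%). The 2 groups overlapped in every member, and 0 of 161 assays (0%) had groups that did not. With the commonly detected assays as reference they again overlapped in all 6 members, where 5 of 161 assays (3.11%) had groups apart, and on raw Ct in all 6 members, where 24 of 161 (14.9%) did. On raw Ct, 4 of 6 members were lower (later) in 3 of 3 series against 99 of 161 assays (61.5%), and 0 of 6 were higher against 1 of 161 (0.621%).

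The direction differed by series more than by member. In series 1, 4 of the 6 members were higher in knockdown with a median log2 change of 0.05, in series 2, 5 were higher with a median of 0.59, and in series 3 all 6 were lower with a median of -0.84. The medians of the 161 assays were -0.17, 0.33 and -0.56, and the shares lower in knockdown were 57.8%, 33.5% and 82.0%. The members' medians thus took the sign of the general shift in series 2 and 3. With the commonly detected assays as reference the general shift is held close to 0 by construction, since those 157 assays are among the 161. The members' medians were then 0.22, 0.23 and -0.25, with 0 of 6 lower and 0 of 6 higher in 3 of 3 series (background 11.8% in each direction).

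**Figure D2:**
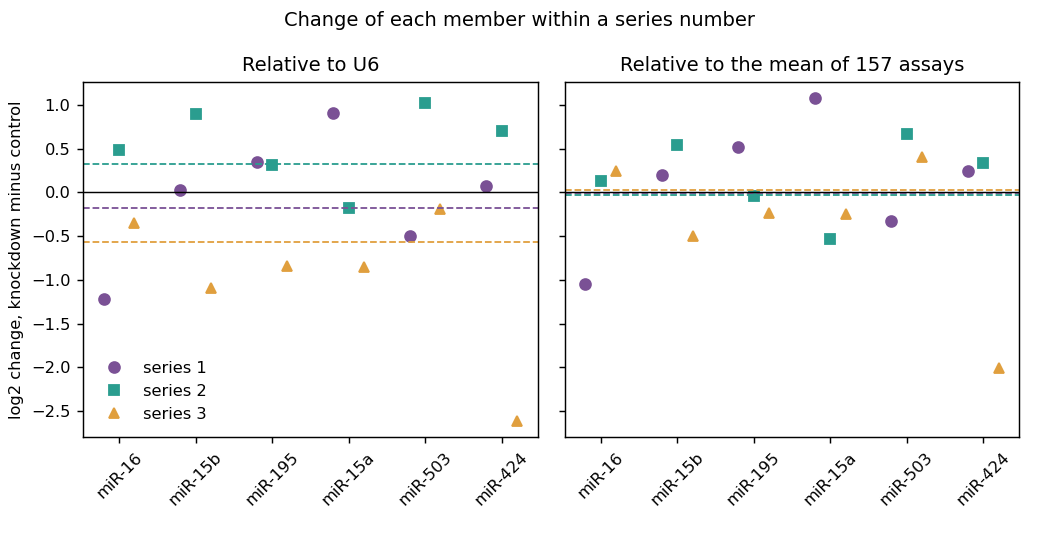
Log2 change, knockdown minus control, of each member within series 1, 2 and 3, relative to U6 (left) and to the mean of 157 commonly detected assays (right). Points are single pairs of samples and dashed lines the median of 161 assays in the same series. No member has its 3 points on one side of 0 in either panel, and miR-424 in series 3 lies lowest, at -2.61 and -2.01.

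Set among all 161 assays within each series, single members reached both ends. In series 1 miR-15a had a change above that of 150 assays, and miR-16 above only 11. In series 3 miR-424 was above only 4 assays, although in series 1 and 2 it stood above 102 and 108. In series 2 the members lay between miR-15a, above 38 assays, and miR-503, above 130.

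Ratios between members on the same card need no reference, and they set members of one cluster or of near-identical sequence against each other. Because the miR-16 assay reads the product of both its loci, ratios to miR-16 cannot isolate the members of one transcript. Exact two-sided permutation tests were run on 5 ratios, and with 3 against 3 samples none can give a p below 0.1. The log2 ratio of miR-15a over miR-16 was -7.53, -6.48 and -8.89 in control samples 1 to 3 and -5.41, -7.14 and -9.39 in knockdown, a difference of 0.32 (exact permutation p = 0.9, adjusted over the 5 ratios 1). It was higher in knockdown by 2.12 in series 1 and lower in series 2 (-0.66) and series 3 (-0.50).

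The ratio of miR-15b over miR-16 was -4.46, -3.36 and -4.82 in control and -3.21, -2.95 and -5.56 in knockdown, a difference of 0.31 (exact permutation p = 0.8, adjusted 1). For miR-195 over miR-16 the values were -5.69, -4.92 and -6.03 in control and -4.13, -5.09 and -6.52 in knockdown, a difference of 0.30 (exact permutation p = 0.8, adjusted 1). All 3 ratios to miR-16 were higher in knockdown sample 1 than in control sample 1 and lower in knockdown sample 3 than in control sample 3. They share the miR-16 well of each card, so they are not independent.

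For miR-15b over miR-15a, the homologous members of the paralogous clusters, the ratio was 3.42 ± 0.561 in control and 3.41 ± 1.06 in knockdown (SD, n = 3), a difference of -0.01 (exact permutation p = 1, adjusted 1). For miR-424 over miR-503 it was -0.62, -0.16 and -0.72 in control and -0.04, -0.49 and -3.14 in knockdown. The difference of -0.72 (exact permutation p = 0.9, adjusted 1) rested on knockdown sample 3 and was 0.24 without it. In the other 5 samples miR-424 was at most 0.722 cycles later than miR-503. Without control sample 3 or knockdown sample 1 the ratios miR-15b over miR-15a and miR-15a over miR-16 changed direction, as did miR-15b over miR-16 without knockdown sample 1 or 2 and miR-195 over miR-16 without knockdown sample 1.

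**Figure D3:**
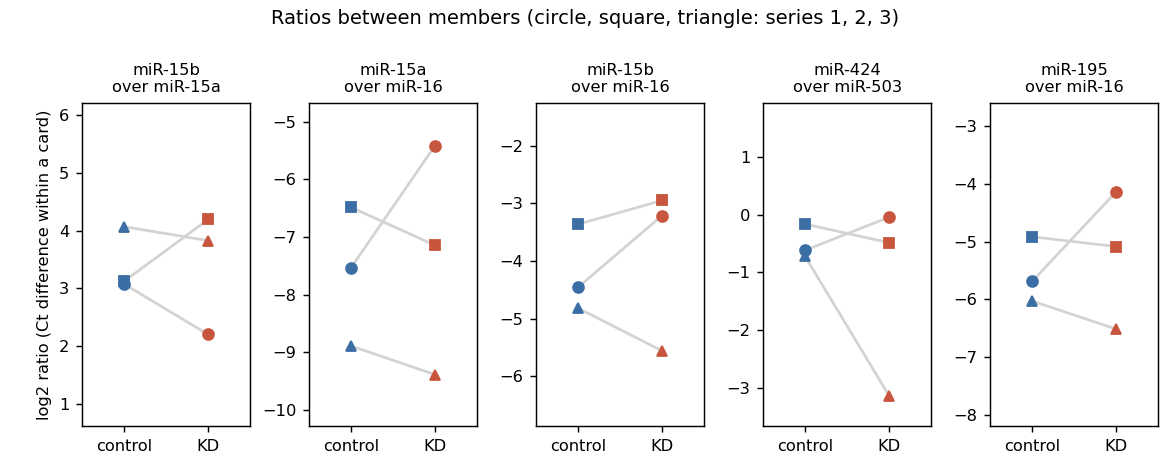
Log2 ratios between members of the same card, in control and knockdown (KD) samples. Grey lines join samples of the same series number, and each panel spans the same number of log2 units. The 2 groups overlap in all 5 panels, and the lowest miR-424 over miR-503 value, -3.14, is knockdown sample 3.

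The other miRNAs of the X-chromosome cluster were read to place the late miR-424 value. In knockdown sample 3 miR-424 was at Ct 32.7, against 28.3 to 29.8 in the other 5 samples. Its neighbour miR-542-3p was at 33.9 there, against 29.9 to 32.4 elsewhere, and miR-542-5p and miR-450a were undetermined there and determined in the other 5. However, miR-542-5p was also late in knockdown sample 2, at 35.1, against 30.4 to 31.0 in the controls and knockdown sample 1. By contrast miR-503 was at 29.6 in knockdown sample 3 and 29.3 in knockdown sample 2, and miR-450b-5p at 29.5 and 29.9. The neighbour miR-450b-3p was determined only in control samples 1 and 2. Of the 4 neighbours tested, 0 passed an adjusted p of 0.05 in limma and 0 had an unadjusted p under 0.05 (log2 change -0.94 for miR-542-3p and miR-542-5p, 1.46 for miR-450a, -0.01 for miR-450b-5p). The values of miR-542-5p and miR-450a leave out knockdown sample 3, where they have none. With the replicate block miR-542-3p changed by -0.94 and miR-542-5p by -1.60, with unadjusted p of 0.076 and 0.0739 (limma, adjusted p = 0.971 for both). The value of miR-542-5p comes from changes of -0.33 in series 1 and -2.86 in series 2. In the same fit miR-450a changed by 0.64 (limma, unadjusted p = 0.390, adjusted p = 0.990) and miR-450b-5p by -0.01. The mean raw Ct of miR-450a was 30.8 in control and 30.9 in knockdown. The mean Ct of the commonly detected assays on the card of knockdown sample 3 was 27.6, close to the 27.7 of knockdown sample 2. The part of detection at late cycles in these values was not tested.

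How closely members followed each other over the 6 samples was measured as the SD of their Ct difference, which a change of reference leaves untouched. Over the 15 pairs of members the SD ran from 0.381 cycles, for miR-15b with miR-503, to 1.89, for miR-16 with miR-424, with a median of 0.856. Over all 12880 pairs of the 161 assays the median was 0.963, and 9 of the 15 member pairs lay under it. Members of one cluster were not the closest pairs, although the miR-16 assay reads the product of both its loci. For miR-15a with miR-16 the SD was 1.48 cycles (miR-16 ranked 141 of 160 assays by closeness to miR-15a), for miR-15b with miR-16 it was 1.04, and for miR-424 with miR-503 it was 1.15. Among X-chromosome neighbours outside the family, miR-542-3p was closer to miR-424, with an SD of 0.573 (ranked 5 of 160). Less close were miR-450b-5p to miR-424 (1.21, ranked 65) and, to miR-503, miR-542-3p (0.928, ranked 113) and miR-450b-5p (0.780, ranked 89). miR-15b, miR-195 and miR-503, from 3 chromosomes, had SDs of 0.381 to 0.471 with each other. The relative miR-103 followed miR-503 with an SD of 0.235 and miR-15b with 0.296. These SDs include the error of single wells, which was not measured.

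**Figure D4:**
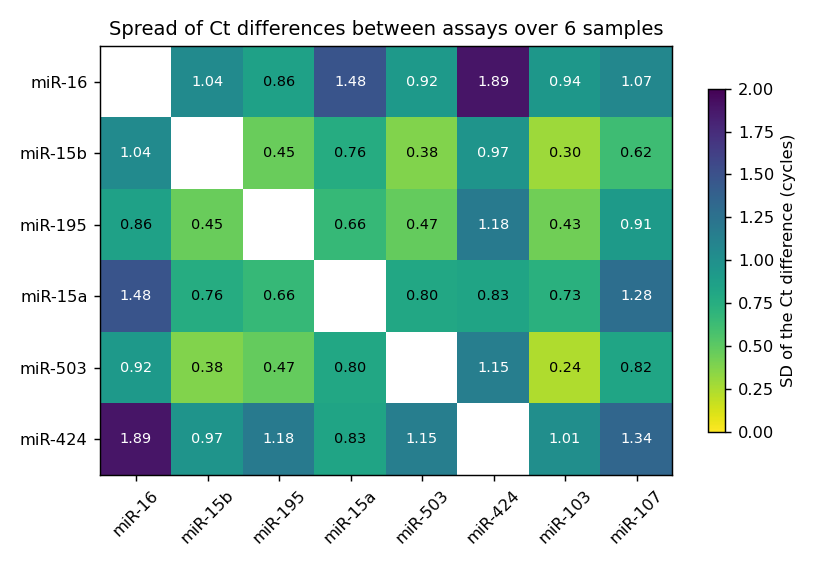
SD in cycles of the Ct difference between each member (rows) and the other members, miR-103 and miR-107 (columns) over the 6 samples; a small SD means that the pair kept a constant ratio. The largest value is 1.89 for miR-16 with miR-424 and the smallest 0.235 (0.24 as drawn) for miR-503 with miR-103.

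For each member the 2 assays with the most constant ratio to it, among 160, were named. They were miR-25 (SD 0.221 cycles) and miR-93 (0.265) for miR-15a, miR-629 (0.145) and miR-301b (0.288) for miR-15b, and miR-342-3p (0.268) and miR-140-3p (0.288) for miR-16. They were miR-30b (0.0912) and miR-331 (0.204) for miR-195, miR-328 (0.376) and miR-128a (0.402) for miR-424, and miR-103 (0.235) and miR-26b (0.252) for miR-503. The median SD to all 160 assays ran from 0.719 for miR-195 to 1.302 for miR-424. No member was among the 2 closest assays of another member. The named SDs are the smallest of 160, each over 6 samples, so they are low in part by selection. How often a given assay would be among the 2 closest was not tested.

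The relatives with the displaced seed gave values in the same range as the members. miR-103 stood at Ct 23.9, 24.8 and 24.3 in control samples 1 to 3 and 24.7, 25.7 and 26.2 in knockdown. miR-107, which differs from miR-103 by 1 base, stood at 28.6, 28.1 and 27.7 in control and 29.5, 29.2 and 30.1 in knockdown. Raw Ct of miR-107 did not overlap between the groups, which was so for 24 of 161 assays (14.9%). Relative to U6 its groups overlapped, and the log2 change was -0.58 for miR-107 and -0.26 for miR-103 (limma, adjusted p = 0.999 for both, SE 1.46 and 1.47). Of these relatives 0 of 2 passed the test in either direction, with 0 at an unadjusted p under 0.05.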

How the data were processed

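MicroRNAs were measured by quantitative PCR cards in 3 control and 3 TruB1 knockdown samples. Per the labels, 1000 ng of total RNA was reverse transcribed with Megaplex Pool A primers and run on TaqMan array cards for 40 cycles; threshold settings are not given in the sources used here. The deposited raw values are Ct in cycles. The deposited normalized value is a ratio to U6, recovered here as a power of 2 whose exponent is the U6 mean over its determined wells less the assay's own Ct (largest difference 6.77e-06 on the log2 scale). There are no counts behind a Ct, so depth is given as the number of assays under Ct 35.

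The log2 of the deposited ratio was compared with limma 3.58.1 in R 4.3.3 (lmFit and eBayes, two-sided, group as the only term), with Benjamini-Hochberg adjustment over all assays tested. An assay was tested with Ct under 35 in at least 3 samples and at least 2 determined values per group; undetermined wells were missing. The code was tested on simulated data. Ratios between members used exact permutation tests in Python 3.11.15.

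Deviations from group means over 161 assays correlated between samples of the same series number at r = 0.416, 0.527 and 0.625 in series 1, 2 and 3. Between unequal numbers r was 0.249 and 0.129 for series 1 with 2, and -0.342 to -0.536 with series 3. Series 1 and 2 are thus less clearly told apart. Equal numbers were treated as pairs on this evidence of the data, no label saying so. Alternatives were another reference, normalization, Ct limit, treatment of undetermined wells, the block and leaving out each sample. Named assays were the members, 2 lists of relatives and cluster neighbours, and for each member the 2 assays with the smallest SD of the Ct difference. Members and lists were chosen with earlier results of these data known. Sequences are the deposited assay targets, all 8 of which match RefSeq's mature sequences, and RefSeq hairpins. The authors' deposited fold changes were not used.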

Additional observations from a re-analysis of the deposited data

How the results depend on the processing

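No assay passed an adjusted p of 0.05 (count 0) under any of the 16 alternatives (limma; 0 to 13 at an unadjusted p under 0.05, with 10 for the replicate block), so no member did. Referred to the commonly detected assays, with or without the replicate block, miR-15a, miR-15b and miR-195 turned to 0.096, 0.082 and 0.076 on the log2 scale, and with quantile normalization to 0.12, 0.047 and 0.195. On raw Ct, which carries the shift of all assays, miR-503 turned to -0.79. A change of reference adds the same amount to every member, since all had values in each sample. The cause of the turns with quantile normalization was not tested. Counting all of these settings, 10 of 60 values for single members turned. Of 36 with a sample left out, 13 turned. Those ran from -1.27 to 1.26 for miR-15a, -0.68 to 1.04 for miR-15b, -0.80 to 0.35 for miR-16, -0.90 to 0.84 for miR-195, -1.75 to 1.25 for miR-424 and -0.64 to 1.01 for miR-503. The mean change over the 6 members, -0.17, lay between -0.95 (without knockdown sample 1) and 0.88 (without knockdown sample 3) with a sample left out, and was -1.07 on raw Ct. With a sample left out the ratios ran from -0.41 to 0.59 (miR-15b over miR-15a), -0.63 to 1.36 (miR-15a over miR-16), -0.17 to 1.13 (miR-15b over miR-16), -1.31 to 0.24 (miR-424 over miR-503) and -0.26 to 0.94 (miR-195 over miR-16). As differences within series numbers, the replicate block left the ratios as they were (exact sign-flip p from 0.75 to 1; smallest possible 0.25) and changed no call. Setting undetermined wells to Ct 40 moved no member, since all had values. A single well per assay and 3 samples per group limit the precision.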
